A study of Mus musculus with 11 samples.

Results

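Chromosomal domains that list at least 1 mRNA as lower and none as higher in Nrl knockout retina were taken from a table of non-coding RNA in the mouse retina at postnatal day 21. In that table every non-coding feature carries the name of a domain and the mRNAs listed as lower or higher there. The rule kept features that occur on 1 line of the table, with lower mRNAs listed and no higher mRNA. It gave 4846 of 36014 features present once, in 367 of 2909 domains. Of these domains, 318 are named as topologically associating domains (TADs) and 49 as the intervals between them (interTADs). They list 501 different lower mRNAs, of 858 lower mRNAs in the whole table. The table was compared between 6 retina libraries of mice lacking Nrl (Nrl KO) and 5 wild-type retina libraries, all at postnatal day 21 and all from RNA depleted of polyadenylated transcripts. The labels name no strain, no allele and no sex, and number the replicates without naming animals, so that p-values measure the spread between libraries, which may be technical. The sources used here do not say how the domains were called or the mRNAs listed.

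A TAD is a stretch of a chromosome whose parts contact each other more often than they contact neighbouring stretches, and enhancers mostly act on promoters of the same TAD. Nrl is a leucine zipper protein that sets newborn photoreceptors on the path to rods. It acts with the homeodomain factor CRX on rod genes, and it switches on Nr2e3, a nuclear receptor that represses cone genes. In the retina without Nrl, rods do not form and the photoreceptors resemble short-wavelength cones. Active enhancers and promoters are often transcribed into unstable RNA without a poly(A) tail, so a library depleted of polyadenylated RNA can hold such transcripts beside antisense and intronic RNA. Fewer cells of a type and less RNA per cell cannot be told apart in whole retina.

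The libraries held 3374221 to 4876429 reads in listed features in Nrl KO and 3238184 to 4150460 in wild-type. A feature inside the Nrl gene on the opposite strand, MSTRG.28375, was at 0 in 5 Nrl KO libraries and at 0.758 normalised counts in the other, against 48.0, 55.5, 39.0, 34.8 and 33.3 in wild-type. The listed mRNAs follow the genotype: of 50 rod genes, 35 are listed lower and 1 higher in the whole table, while of 31 cone genes 21 are listed higher and 0 lower. Of 14 microglia genes 12, and of 21 glial and stress response genes 17, are listed higher, and their part in the results was not tested. In the domains described here the listed lower mRNAs include 20 rod genes, 4 photoreceptor transcription factors and 1 bipolar cell gene (Prkca). The factors are Mef2c, Nr2e3, Rorb and Samd7, all but Rorb also among the rod genes. No gene of the other lists is among these mRNAs. This absence was nearly fixed by the rule and says nothing about cell types. Among those other lists, only the horizontal cell list has any gene listed lower in the whole table, and it has 1. Known long non-coding RNAs of the retina were present. The means of 6 features of Otx2os1 summed to 12058 normalised counts in Nrl KO and 8449 in wild-type. The 1 feature of Vax2os had a mean of 3.22 in Nrl KO and 60.4 in wild-type. Wild-type replicate 1, the library with the fewest reads, stood apart from the other wild-type libraries in several of the values below. In what follows, values of a feature or domain are normalised counts, given for Nrl KO as the lowest, the median and the highest of 6 libraries and for wild-type as replicates 1 to 5 in order, and differences are Nrl KO minus wild-type on the log2 scale.

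The domains can be shown by the promoters of the mRNAs they list. The sequences below are RefSeq promoters (GRCm38.p6, 250 bases before to 50 after the start, 5′ to 3′ on the strand of the gene) of the listed mRNA nearest to the feature of largest difference, in a domain that was lower in Nrl KO (Cmah, Grk1) or higher (Stac, 2610528A11Rik). Capitals mark TAATCC, the core of the CRX motif, and TGCTGA, the core of the NRL motif. Both were searched on both strands, and a match on the other strand reads GGATTA or TCAGCA. Of 8 promoters searched in this way, Cmah, Ppp1r3g, Usp6nl, Tcp11 and Sema4c held neither. Cmah lies at chr13:24327154-24327453 on the plus strand, Grk1 at chr8:13404831-13405130 on the plus strand, Stac at chr9:111690299-111690598 on the minus strand and 2610528A11Rik at chr14:37110052-37110351 on the minus strand.
Cmah: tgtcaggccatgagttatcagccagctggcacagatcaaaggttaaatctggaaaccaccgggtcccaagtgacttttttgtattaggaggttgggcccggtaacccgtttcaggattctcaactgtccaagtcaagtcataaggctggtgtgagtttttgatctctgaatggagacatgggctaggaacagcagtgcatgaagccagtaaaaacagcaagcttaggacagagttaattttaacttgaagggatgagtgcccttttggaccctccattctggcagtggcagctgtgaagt
Grk1: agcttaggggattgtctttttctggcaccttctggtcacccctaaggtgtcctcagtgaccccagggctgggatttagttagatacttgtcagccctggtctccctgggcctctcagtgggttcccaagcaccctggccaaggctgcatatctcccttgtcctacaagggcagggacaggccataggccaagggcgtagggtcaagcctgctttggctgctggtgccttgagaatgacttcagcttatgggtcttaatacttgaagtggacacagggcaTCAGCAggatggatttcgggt
Stac: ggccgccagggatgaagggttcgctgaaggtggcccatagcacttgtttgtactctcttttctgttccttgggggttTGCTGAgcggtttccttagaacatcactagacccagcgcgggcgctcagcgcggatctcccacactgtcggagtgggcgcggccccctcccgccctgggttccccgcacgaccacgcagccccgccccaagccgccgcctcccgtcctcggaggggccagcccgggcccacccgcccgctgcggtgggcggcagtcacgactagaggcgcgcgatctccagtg
2610528A11Rik: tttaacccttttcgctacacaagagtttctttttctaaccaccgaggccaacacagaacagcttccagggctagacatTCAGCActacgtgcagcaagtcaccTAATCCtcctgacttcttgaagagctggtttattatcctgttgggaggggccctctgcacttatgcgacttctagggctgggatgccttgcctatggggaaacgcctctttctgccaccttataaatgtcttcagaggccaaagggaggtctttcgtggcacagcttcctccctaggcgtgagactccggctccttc
Over all 32851 promoters of this length, 7.06% held TAATCC and 19.5% held TGCTGA. Over the 477 promoters found for 380 of the listed lower mRNAs, the shares were 8.39% and 15.7%. A match describes the letters of this window only.

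Features of these domains were more often lower than higher in Nrl KO. Each feature was tested with limma on log2(normalised count + 1), and a Benjamini-Hochberg adjusted p below 0.05 over all features tested was a call. Of the 4846 features, 2983 reached a mean of 5 normalised counts and were tested, and 1863 did not. Of those tested, 765 (25.6%) were lower and 270 (9.05%) were higher, while over all 21395 features tested 12.6% were lower and 15.6% higher, 28.1% in all. The median log2 difference was -0.22, against -0.02 over all features tested. A difference of at least 2-fold was seen in 652 of the lower and 210 of the higher features, and one of at least 16-fold in 165 and 20. Over all 21395 features tested, the counts were 2040 lower and 2746 higher at 2-fold, and 346 and 144 at 16-fold. The reverse held in the 617 domains that list only higher mRNAs, where 1615 of 5411 tested features were higher, 431 were lower and the median was 0.24. Domains that list no changed mRNA had 929 higher and 1057 lower of 9938. In the authors' deposited table, 903 of the 4846 features are lower and 324 higher at an adjusted p below 0.05, where the background is 8.48% lower and 10.9% higher.

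The share of a library's reads that fell in these features separated the groups. It was 8.44%, 8.996% and 10.2% at the lowest, the median and the highest Nrl KO library, and 12.1%, 13.1%, 11.8%, 12.4% and 11.2% in the wild-type libraries. The groups did not overlap. A few features held much of this total, and the 2 most abundant were not called. MSTRG.56381, in the domain that lists the guanine nucleotide exchange factor gene Arhgef26, made up 17.7% of it and averaged 78404 normalised counts in Nrl KO and 64559 in wild-type. MSTRG.44687, in a domain that lists the organic anion transporter genes Slc22a28, Slc22a29, Slc22a30 and Slc22a8, made up 17.5% and averaged 67249 in Nrl KO and 76084 in wild-type.

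The normalised counts of all features of a domain were then summed in each library, and the sums of all 2745 domains with a mean of at least 5 were tested in the same way. Of the 367 domains, 354 were tested. The sum was lower in 167 (47.2%) and higher in 31 (8.76%), and 156 were not called, while over all domains tested 20.8% were lower and 18.8% higher, 39.6% in all. The median log2 difference was -0.32, against -0.03 over all domains. At least 2-fold differences were seen in 102 lower and 12 higher domains, against 246 and 257 over all 2745 domains tested. Among TADs, 149 of 309 were lower and 28 higher, and among interTADs 18 of 45 were lower and 3 higher. Without wild-type replicate 1 the counts were 162 lower and 36 higher.

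**Figure D1:**
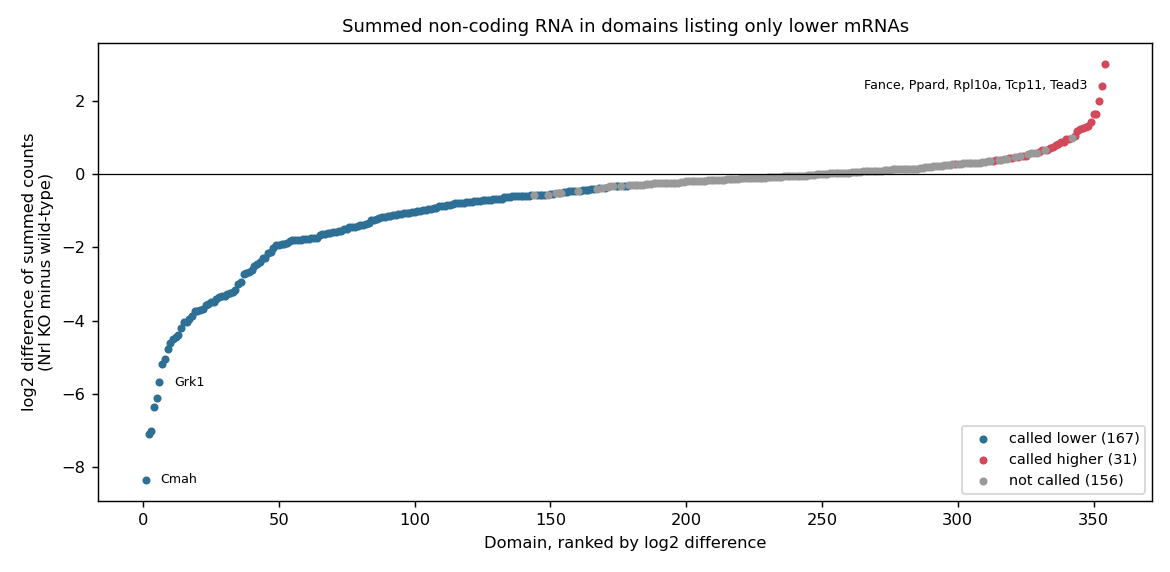
The log2 difference of the summed normalised counts (Nrl KO minus wild-type, vertical axis) is plotted for the 354 tested domains in rank order (horizontal axis), coloured by call. The 167 domains called lower reach -8.35 at the domain of Cmah, and among the 31 called higher the domain of Ppard and Tead3, at 2.40, is the last point but 1.

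Most domains with any feature call held calls in 1 direction. Only lower calls were found in 159 domains, only higher calls in 32, and no feature call in 100. The 100 include 13 domains whose sum was too low to be tested. A domain with 1 call can hold only 1 direction, and the same counts over all domains of the table are not given here. In 76 domains some features were lower and others higher, and of these 38 were lower on the sum, 11 higher and 27 not called. The most abundant feature made up a median of 53.6% of a domain's sum. When it was left out of each domain, 138 domains were lower and 35 higher. Lower calls could be many: 49 domains held at least 5, and 25 of these held no higher call.

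The domains that went furthest with the listed direction were led by features that overlap the listed gene on the opposite strand or lie within 100 kb of it. Domains were named by a rule that took, among those with at least 3 tested features, the 10 of largest difference in each direction. The first was interTAD_792, which lists Cmah, the enzyme that makes the sialic acid Neu5Gc. Its sum was 3.79, 8.03 and 16.2 normalised counts in Nrl KO, and 2526, 2493, 2705, 3013 and 3518 in the wild-type libraries. All 6 of its features were lower, and the sum differed by -8.35 on the log2 scale (SE 0.25, limma adjusted p = 1.19e-13). Its leading feature, MSTRG.23521 (chr13:24349295-24361998, minus strand), overlaps the non-coding gene Gm11342 and an intron of Cmah on the opposite strand.

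The domain TAD_1187 lists Grk1, the rhodopsin kinase of photoreceptors. Its sum was 105, 141 and 157 in Nrl KO, and 7580, 6052, 7248, 6389 and 7099 in wild-type, a log2 difference of -5.68 (SE 0.12, limma adjusted p = 2.91e-15). The groups were far apart, and 1 feature carried the difference. MSTRG.84881 (chr8:13507158-13524877, plus strand) made up 94.4% of the sum and lies in no annotated gene, 85.2 kb downstream of Grk1 on the same strand. It held 34.1, 48.4 and 55.6 normalised counts in Nrl KO and 7217, 5729, 7012, 6141 and 6833 in wild-type, a log2 difference of -7.10. Without it the domain still differed by -1.73. A smaller feature 83.7 kb from Grk1 on the opposite strand, MSTRG.84880, differed by -5.59, and both features that overlap Grk1 were lower, at -1.02 and -2.07. In the same domain MSTRG.84893, 236 kb from Grk1, went the other way: it held 34.2, 40.3 and 60.5 in Nrl KO, against 4.11, 1.88, 2.78, 0.967 and 5.04 in wild-type.

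In 4 of the 10 domains the leading feature overlaps the listed gene on the opposite strand. For these, reads of the feature and of the gene cannot be told apart, since strand use in counting is not given. In TAD_208, which lists the Rab GTPase activating protein gene Usp6nl, MSTRG.47038 overlaps an exon of Usp6nl on the opposite strand. It was at 0 in 4 Nrl KO libraries and at most 2.49 in the others, against 424, 337, 343, 327 and 331 in wild-type. In TAD_1350, which lists Cep164, a protein of the distal appendages of centrioles, MSTRG.91064 (chr9:45805264-45822682, plus strand) runs antisense to Cep164. It held 18.6, 26.5 and 31.5 in Nrl KO, against 6513, 4079, 4320, 3504 and 3322 in wild-type. The sum of this domain differed by -4.50, but by 0.55 when features that overlap the listed gene were left out (limma adjusted p = 0.0114). In TAD_1827, which lists the chromatin remodelling factor Dpf3, the antisense MSTRG.21178 held 7.47, 14.5 and 23.995 in Nrl KO and 794, 549, 351, 525 and 556 in wild-type.

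In other domains the leading RNA lay outside the listed genes. TAD_207 lists Optn, an autophagy receptor, with Camk1d, Mcm10 and Ucma. MSTRG.46971 (chr2:5075108-5083538, minus strand), 11.1 kb upstream of Optn on the same strand, held 0, 2.53 and 3.84 in Nrl KO, and 3747, 2849, 2580, 2176 and 2318 in wild-type. Of the 18 tested features of this domain 8 were lower and 0 higher, and the 3 lower ones between 11.1 and 19.5 kb from a listed gene differed by -9.89 to -7.34, more than those within the genes. TAD_965 lists Vax2, a homeodomain factor of the ventral retina, with Cd207 and Tet3. Its MSTRG.74898, 9.36 kb upstream of Vax2 on the same strand and antisense to the non-coding gene Vax2os, held 3.91, 5.15 and 7.47 in Nrl KO and 2810, 2050, 1940, 1994 and 1791 in wild-type. The 2810 of wild-type replicate 1 stood apart from the other wild-type values, all of which were still far above Nrl KO.

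TAD_1373 lists Nr2e3 with Gramd2. MSTRG.91833 (chr9:59918954-59932751, minus strand) lies in the non-coding gene Gm20275, 10.02 kb downstream of Nr2e3 on the same strand. It also overlaps an exon of Myo9a on the opposite strand. It held 2.02, 5.50 and 9.60 in Nrl KO and 926, 1066, 1194, 1014 and 1690 in wild-type. The remaining named domains were TAD_1895, which lists Ppp1r3g and Rpp40 (log2 difference -7.002), and TAD_1811, which lists the dehydrogenase gene Dhrs7 (-3.74). TAD_1811 rested on 1 feature, MSTRG.20705, 23.5 kb upstream of Dhrs7 on the opposite strand, with 1.04, 2.60 and 5.05 in Nrl KO and 963, 834, 987, 927 and 945 in wild-type. Without it the domain differed by 0.21 (limma adjusted p = 0.417).

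A domain just outside the 10, named after its values were seen, held the fourth most abundant of all the features described here. TAD_1352 lists the synaptic adhesion gene Cadm1 and Rbm7, and differed by -3.49. MSTRG.91136 (chr9:47456357-47474927, minus strand), 55.2 kb upstream of Cadm1 on the opposite strand, held 450, 627 and 810 normalised counts in Nrl KO, and 24102, 17706, 19280, 17308 and 21447 in wild-type. Of the 41 tested features of the domain 18 were lower and 0 higher. Those called lower outside the listed genes included 11 between 55.2 and 96.8 kb, which differed by -5.30 to -3.99.

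**Figure D2:**
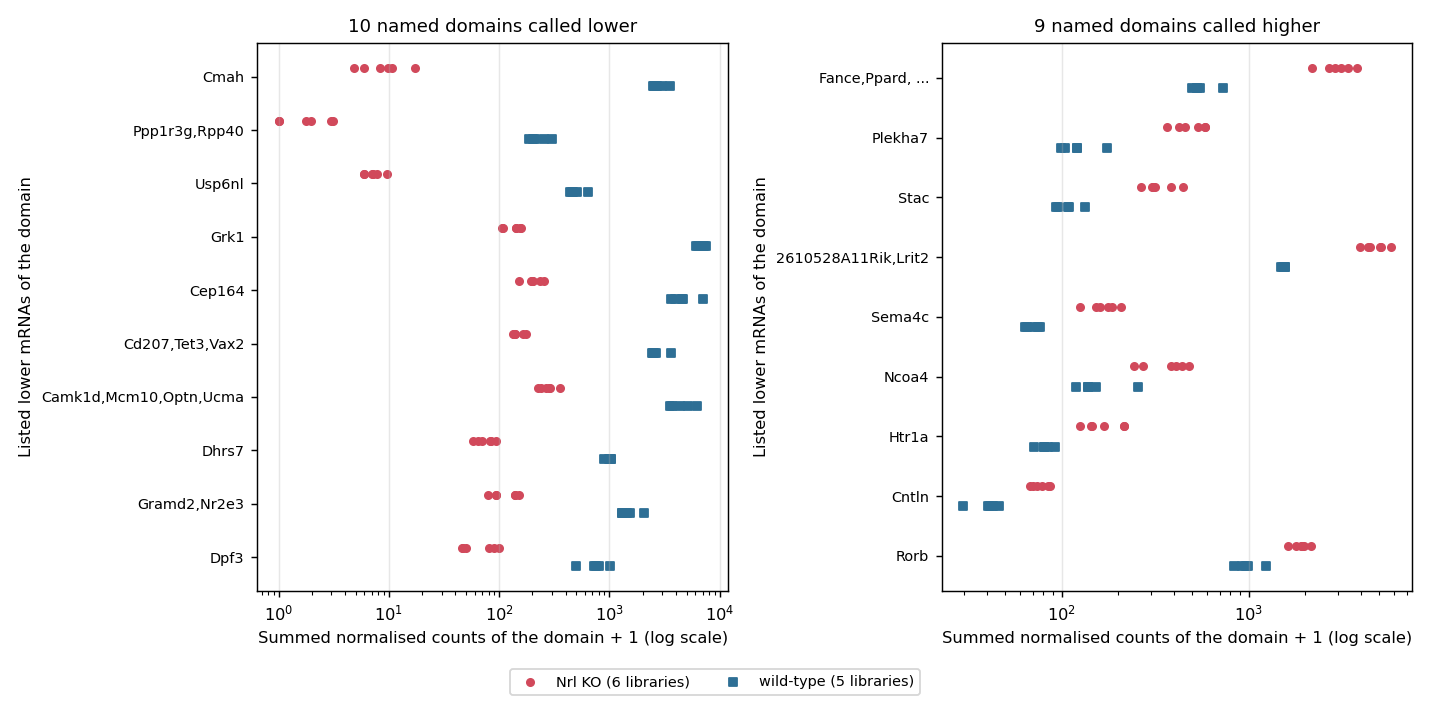
Summed normalised counts of a domain plus 1 are shown on a log scale (horizontal axis) for each Nrl KO library (circles, upper of each pair) and each wild-type library (squares, lower of each pair), by the listed lower mRNAs of the domain (vertical axis). The 10 domains on the left are lower in Nrl KO without overlap. Of the 9 on the right, Ncoa4 is the domain whose groups overlap. These domains were picked for large differences. Among all domains described here, groups did not overlap in 140 of the 167 called lower and 20 of the 31 called higher. The same count over all domains of the table is not given here.

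The domains that went against the listed direction were mostly led by RNA far from the listed gene. TAD_2333 lists 5 lower mRNAs, among them the nuclear receptor Ppard and the Hippo pathway factor Tead3. Its sum was 2181, 3003 and 3822 normalised counts in Nrl KO, and 731, 529, 549, 529 and 495 in wild-type, a log2 difference of 2.40 (SE 0.14, limma adjusted p = 3.45e-10). Its 1 tested feature within 10 kb of a listed gene was lower, at -3.78, while the 3 higher features lay 422 to 493.3 kb away. TAD_1141, which lists the adherens junction gene Plekha7, differed by 2.00, and 6 of its 8 tested features were higher. TAD_1441, which lists Stac, differed by 1.63. Its leading feature MSTRG.94529, 83.3 kb upstream of Stac, held 143, 192 and 251 in Nrl KO and 42.5, 7.53, 16.7, 8.71 and 6.05 in wild-type, where replicate 1 was the highest.

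TAD_2016 lists 2610528A11Rik and the leucine-rich repeat gene Lrit2, and its sum was 3949, 4771 and 5783 in Nrl KO and 1563, 1541, 1497, 1523 and 1572 in wild-type. The difference of 1.63 rested on MSTRG.27675, 259 kb upstream of Lrit2, which made up 84.4% of the sum, and without it was 0.11 (limma adjusted p = 0.417). In this domain all 4 tested features at 100 kb or more were higher. Those nearer were mixed: 3 of 5 under 10 kb (overlapping ones included) were lower and 1 higher, and 3 of 5 from 10 to under 100 kb were higher and 1 lower, with the largest difference, 3.02, in MSTRG.27717 at 27.8 kb. Sema4c, a semaphorin, gave 1.24, the serotonin receptor gene Htr1a 1.02 and the centrosomal gene Cntln 0.95. The domain of Ncoa4, the receptor that delivers ferritin to lysosomes, differed by 1.22 with groups that overlapped: its sum was 242, 397 and 478 in Nrl KO and 255, 138, 151, 137 and 118 in wild-type, where replicate 1 stood apart.

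Over the 2 sets of 10, the called feature of largest difference lay 0 to 85.2 kb from a listed gene in the domains that were lower, with a median of 9.69 kb. In the domains that were higher it lay 27.8 to 1097 kb away, with a median of 480 kb, and in 8 of the 10 at 100 kb or more. The span of a domain limits such distances, and spans were not matched between the sets. Features of TAD_1895, which was lower, ran over chr13:35939937-35946990, and those of TAD_2016, which was higher, over chr14:34908396-37153696.

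Distance showed the same order over all tested features. Of 380 features that overlap a listed lower mRNA gene, 213 (56.1%) were lower and 4 higher, with a median log2 difference of -1.16. Within 10 kb outside the gene, 144 of 301 (47.8%) were lower and 9 higher (median -0.66). From 10 kb to under 100 kb, 250 of 799 (31.3%) were lower and 65 higher (median -0.25). At 100 kb or more, 156 of 1497 (10.4%) were lower and 191 (12.8%) higher (median -0.06), shares close to the background of 12.6% and 15.6%. The median distance was 12.1 kb for features called lower, 229 kb for those called higher and 101 kb for all tested. Without the features that overlap a listed gene, 552 were lower and 266 higher.

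The same contrast was seen within domains. In 139 domains with tested features both within 10 kb of a listed gene (overlapping ones included) and at 100 kb or more, the median of the near features was below that of the far ones in 115. Across these domains the near medians had a median of -1.24 and the far ones of -0.08. Spearman's rho between distance and log2 difference was 0.36 across 2977 features, and 0.28 across the 2597 outside listed genes. These are descriptions, since features of a domain share their listed genes and all features share the 11 libraries.

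**Figure D3:**
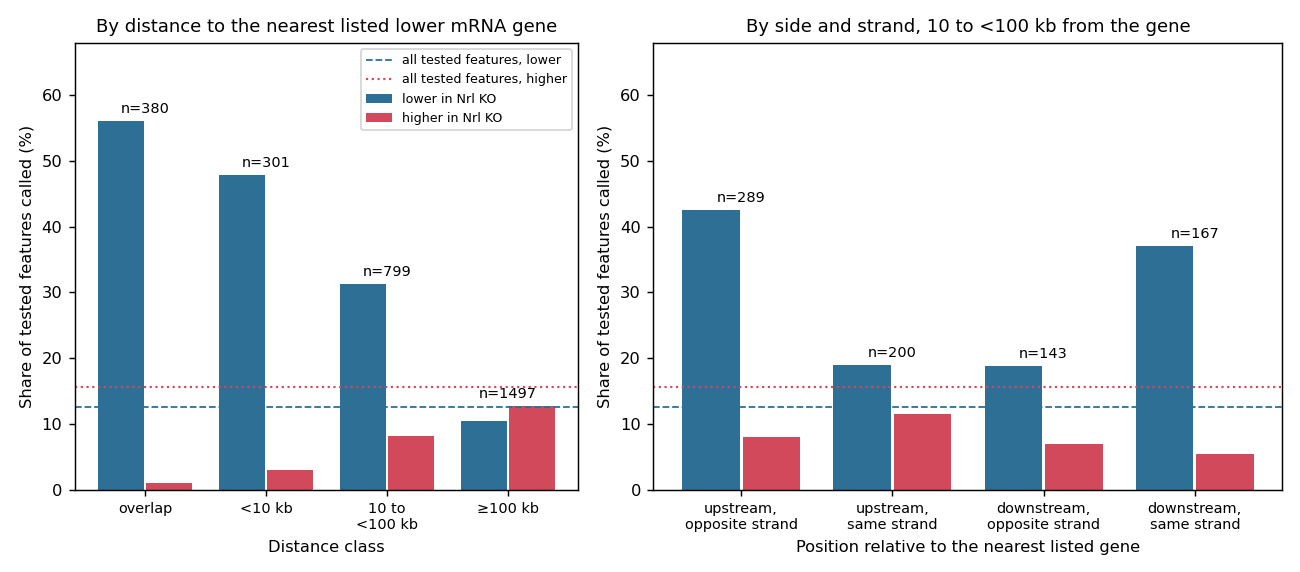
The share of tested features called lower (left bar) and higher (right bar) in Nrl KO, in percent, is shown by distance to the nearest listed lower mRNA gene and, at 10 to under 100 kb, by side and strand; lines give the shares over all tested features. Lower calls make up 56.1% of features that overlap a listed gene and 10.4% of those at 100 kb or more.

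Side and strand relative to the gene went with the share of lower calls at 10 to under 100 kb. Of the 380 overlapping features, 368 lie on the strand opposite to the listed gene, and 208 of these were lower. The excess of opposite-strand features is shared by the whole table: over all tested features, 6265 were classed as antisense to a coding gene and 674 as on its strand. Overlap with an exon and with an intron gave similar shares, 71 of 119 and 142 of 261. From 10 kb to under 100 kb, features upstream on the opposite strand, the direction of divergent transcription, were lower in 123 of 289 (42.6%). Features downstream on the same strand, where transcription past the gene end would lie, were lower in 62 of 167 (37.1%). Neither kind of transcription was tested. Upstream on the same strand 38 of 200 (19.0%) were lower, and downstream on the opposite strand 27 of 143 (18.9%). Averaged over domains the contrast was smaller, with shares of 39.6%, 35.3%, 26.4% and 24.1% in the order given here. Under 10 kb the shares were closer, at 51.6% upstream on the opposite strand, 48.2% downstream on the same strand, 47.0% upstream on the same strand and 32.1% (9 of 28) downstream on the opposite strand. Of the 123, 20 came from 1 domain, TAD_2026, and without it the share was 38.4%. That domain lists 1700011H14Rik and held 30 lower and 0 higher features of 38 tested, 25 of them within 100 kb. On the chromosome itself, plus-strand features were lower in 400 of 1404 (28.5%) and minus-strand features in 365 of 1579 (23.1%), while over all tested features the shares were 12.8% and 12.4%. TAD_2026 gave 30 of the 400, and without it the plus-strand share was 27.0%.

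Domains that list 2 to 4 mRNAs were lower more often than those that list 1. With 1 listed mRNA, 111 of 264 tested domains were lower and 28 higher, with a median log2 difference of -0.24. With 2, 39 of 62 were lower and 2 higher (median -0.61), and with 3 or 4, 15 of 24 were lower and 0 higher (median -0.74). Among 4 domains with 5 or more, 2 were lower and 1 higher. Across features the share of lower calls was 22.5%, 33.0%, 35.4% and 19.4% in the same order. Within classes of distance to a listed gene this order held in part: for 1, 2, and 3 or 4 listed mRNAs the share was 52.4%, 61.0% and 64.6% in features that overlap a listed gene, 46.9%, 47.5% and 48.1% under 10 kb, 31.2%, 37.9% and 27.4% at 10 to under 100 kb, and 9.15%, 15.7% and 13.7% at 100 kb or more. Spearman's rho between the number of listed mRNAs and the domain difference was -0.19 across 354 domains. Domains with more listed mRNAs also held more tested features, with medians of 5, 7, 10.5 and 15.5, and the number of tested features itself had a rho of 0.01.

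The domain with the most listed mRNAs was not called. TAD_1883, on chromosome 13, lists 7: Hfe and the replication-dependent histone genes Hist1h1c, Hist1h1e, Hist1h2ac, Hist1h2bc, Hist1h2bh and Hist1h4h. Its sum was 1381, 2003 and 2986 in Nrl KO and 3152, 2550, 1978, 2484 and 1886 in wild-type, a log2 difference of -0.25 (SE 0.20, limma adjusted p = 0.357). The groups overlapped, and 3 of its 29 tested features were lower. The neighbouring TAD_1884, with 6 listed mRNAs including the phosphate transporter genes Slc17a1 to Slc17a4, was lower, at -0.95, with 7 features lower and 2 higher of 16.

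Longer features were called lower more often, here as in the whole table, while by abundance the share in these domains was highest in the class below the top one. Under 200 bp, 10.5% were lower, against 5.24% over all tested. At 200 to under 1000 bp 428 of 1783 were lower, against 11.2%. The share was 36.3% against 18.2% at 1000 to under 5000 bp and 38.6% against 22.4% at 5000 bp or more. Over these length classes the median of the mean normalised count in these domains was 6.16, 11.6, 64.4 and 372. Length and abundance were thus not separated. By mean normalised count it was 16.4% against 7.21% at 5 to under 10, 25.8% against 12.6% at 10 to under 50, 43.7% against 21.1% at 50 to under 200, and 35.8% against 24.8% at 200 or more. In every class the share in these domains was above that over all tested features, whose share of calls also grows with length. The median difference changed less, with a rho of -0.10 against length and -0.11 against the mean across 2983 features.

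**Figure D4:**
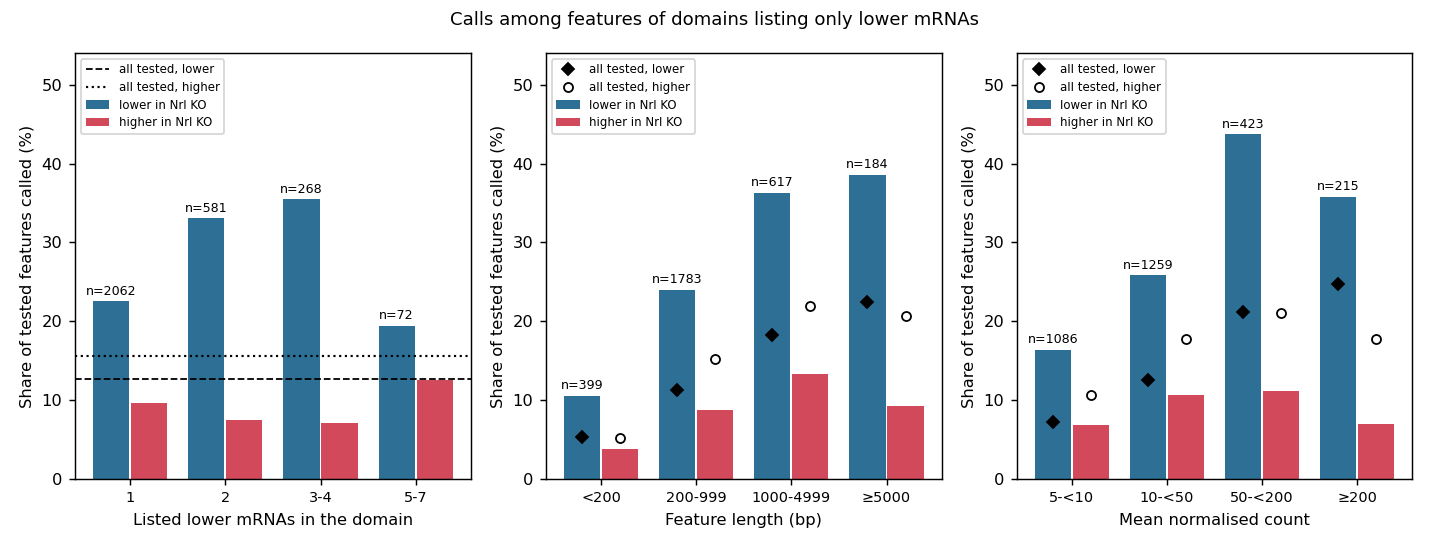
The share of tested features called lower (left bar) and higher (right bar) in Nrl KO, in percent, is plotted by the number of listed lower mRNAs, by length and by mean normalised count; lines or symbols give all tested features. Lower calls reach 35.4% with 3 or 4 listed mRNAs, 38.6% at 5000 bp or more and 43.7% at 50 to under 200 normalised counts.

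Domains that list known rod genes were called about as often as all 354 tested domains together. Lists of rod genes and photoreceptor transcription factors named 21 domains, of which 10 were lower on the sum, 2 higher and 9 not called, close to the 47.2% lower and 8.76% higher over all. The domains of 20 rod genes held 82 lower and 14 higher of 282 tested features, beside 25.6% and 9.05% over all 2983, and their median sum differed by -0.52. Of 20 tested features that overlap 12 rod genes, 16, at 11 genes, were lower and 0 higher, with a median of -2.13. For the 380 features that overlap a listed gene, 12 on its strand and 368 on the opposite strand, reads of the feature and of the gene cannot be told apart, since strand use in counting is not given.

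Cnga1 encodes a subunit of the rod cyclic nucleotide-gated channel that carries the light-sensitive current. MSTRG.68455 (chr5:72612161-72612279, plus strand), antisense to an exon of Cnga1, was at 0 in 4 Nrl KO libraries and at most 0.976, against 481, 312, 279, 288 and 276 in wild-type. In the same domain 4 features 296 to 377 kb from a listed gene were higher, by 0.79 to 1.21. The sum of the domain differed by -1.44, and by -0.02 without features that overlap a listed gene (limma adjusted p = 0.937). Still, its 1 tested feature within 10 kb outside a listed gene, at 5.93 kb, was lower, at -6.30. The other subunit gene, Cngb1, had an antisense feature, MSTRG.87812, with 1.52, 3.54 and 6.72 in Nrl KO and 347, 187, 199, 258 and 174 in wild-type. The domain sums of Cngb1 (-1.50) and of the cation exchanger gene Slc24a1 (-0.47) lost their calls without features that overlap listed genes, at -0.37 (limma adjusted p = 0.0619) and -0.15 (limma adjusted p = 0.286).

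Other rod domains held clusters of lower features at a distance. In the domain of Impg1, a proteoglycan of the matrix around photoreceptors, 12 of the 15 tested features from 10 to under 100 kb were lower, all 12 between 38.6 and 79.1 kb, at -3.34 to -2.31. Of the 52 at 100 kb or more 6 were lower, and the whole domain, the largest with 152 features, had no higher call. In the domain of the potassium channel gene Kcnv2, 10 of 14 features from 10 to under 100 kb were lower and 1 of 16 beyond. The domain of Guca1b, a guanylate cyclase activator, was mixed: 5 features were lower and 4 higher. There MSTRG.39539, 3.19 kb upstream of Guca1b on the opposite strand, held 9.86, 23.6 and 29.8 in Nrl KO and 612, 518, 415, 488 and 323 in wild-type. MSTRG.39522, 321 kb away, held 13.5, 17.9 and 24.96 in Nrl KO and at most 0.928 in wild-type, with 4 wild-type libraries at 0.

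The 9 domains that were not called were those of Pdc, Reep6, Rcvrn, Gucy2e, Unc119, Rdh12, Susd3 and Prph2, with that of the transcription factor gene Samd7. In 7 of these 9, at least 1 feature was lower. Without the most abundant feature 2 of the 9 were called lower, that of Pdc at -0.65 (limma adjusted p = 0.00796) and that of Rdh12 at -0.55 (limma adjusted p = 0.00784). Without features that overlap a listed gene that of Reep6 was called higher, at 0.47 (limma adjusted p = 0.0167). In the domain of the retinol dehydrogenase gene Rdh12 the sum differed by -0.09. Yet MSTRG.21000, 20.5 kb downstream of Rdh12 and antisense to an exon of Zfyve26, was far lower. It was at 0 in 2 Nrl KO libraries and at most 1.95, against 210, 262, 133, 167 and 90.8 in wild-type. MSTRG.21011, 893 kb from Rdh12, made up 74.9% of that sum and differed by 0.06. In the domain of Prph2, a structural protein of outer segment discs, the antisense MSTRG.39514 was lower, at -1.57 in a sum that differed by 0.03.

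The domains of Rorb and Mef2c were the 2 of the 21 that were higher. Rorb encodes a nuclear receptor needed for Nrl expression in rod precursors. The sum of its domain was 1616, 1915 and 2165 in Nrl KO and 1234, 991, 922, 836 and 964 in wild-type, a log2 difference of 0.95 (SE 0.11, limma adjusted p = 2.72e-06). The domain split by distance. Of the 3 tested features that overlap Rorb itself 2 were lower and 0 higher, MSTRG.45147 with 4.88, 7.52 and 16.2 in Nrl KO and 75.4, 76.2, 44.5, 69.6 and 116 in wild-type. All 21 features called higher lay 999.9 to 1172 kb away, with differences of 1.02 to 4.55. MSTRG.45178 among them held 37.1, 65.2 and 105 in Nrl KO and at most 3.87 in wild-type.

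Mef2c encodes a transcription factor that acts with Nrl and CRX in photoreceptors. Its domain differed by 0.44 (SE 0.14, limma adjusted p = 0.0189) and rested on MSTRG.25504, 61.2 kb upstream on the opposite strand, which made up 90.7% of the sum. Without it the difference was 0.09 (limma adjusted p = 0.632). MSTRG.25504 held 6159, 8082 and 9374 in Nrl KO and 4354, 5161, 6525, 6178 and 6202 in wild-type, so that the groups overlapped.

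**Figure D5:**
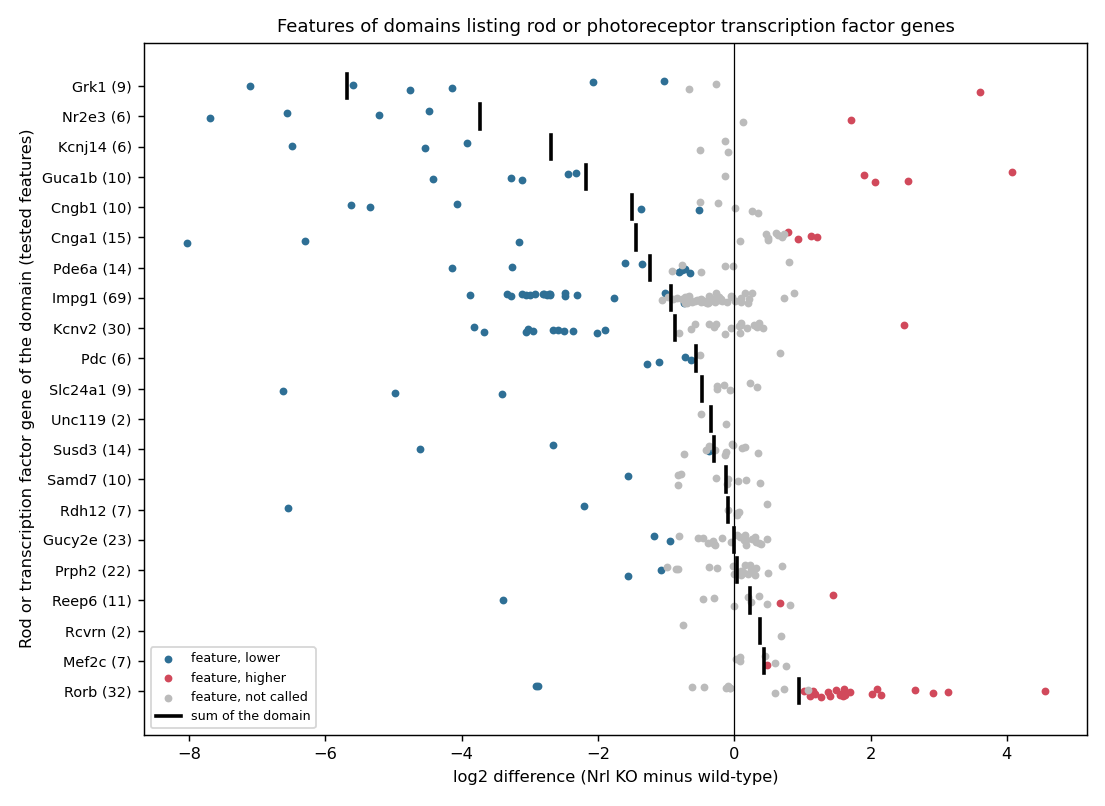
Each point is the log2 difference (Nrl KO minus wild-type, horizontal axis) of a tested feature, coloured by call, in 21 domains that list a rod gene or a photoreceptor transcription factor (vertical axis, with the number of tested features); black bars mark the summed domain. Lower features reach beyond -8 at Cnga1, while the domain of Rorb holds 21 higher features.

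Of 5 domains within 10 Mb of Nrl on chromosome 14, 4 were lower and 1 higher. Without them, 163 domains were lower and 30 higher.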

How the data were processed

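Retina RNA depleted of polyadenylated transcripts was sequenced in 6 Nrl KO and 5 wild-type libraries with single-end, stranded reads, per the labels' protocols. The deposited table gives, per the file headers, one signal column per library, in read counts normalised by the authors with DESeq2 on mm10, with the authors' own log2 fold change and its standard error, test score, p-value and adjusted p-value. The submitters' processing notes name TopHat2 2.0.10 and Cufflinks 2.2.1 and the builds mm9 and mm10. The sources used here do not say how reads were counted or whether strand was used. The members and gene lists were chosen with earlier results of these data known.

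Values were tested with limma 3.58.1 in R 4.3.3 (lmFit, then eBayes with trend and robust) on log2(normalised count + 1), in a two-sided comparison of the groups without covariates, for features with a mean of at least 5 and for domain sums with a mean of at least 5. Benjamini-Hochberg adjustment ran over all features or all domains tested, with calls at an adjusted p below 0.05. The fits were tested on simulated data first. The added 1 makes changes of scarce features look smaller. Every value came out as a whole multiple of the worth of 1 read (100% within 0.001 of the multiple, a criterion that only low values can miss), so edgeR 4.0.16 and DESeq2 1.42.0 were run as alternatives on whole reads of 9 libraries, leaving out 2 in which 1 read is worth close to 1 normalised count. A count of 0 allows up to 3 reads, 2.28 to 4.11 normalised counts by library, for counting error only. Of 503 listed mRNA entries 502 were placed in the GENCODE M21 annotation, which gave distances and strands. Positions count from 1. Features on 2 lines, 83 in all, were left out of the members. Domain positions are not in the table, so distances are between a feature and a listed gene.

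Domains were named by a rule: among those with at least 3 tested features, the 10 of largest difference in each direction, the 5 with the most listed mRNAs, and every domain listing a rod or photoreceptor transcription factor gene. Of the 10 higher domains 1 is not reported here. In each, the most abundant feature was named, and the called feature of largest difference where it was another. Features and domains outside the rule (MSTRG.91136 with TAD_1352, TAD_2026, MSTRG.45147, MSTRG.84880, MSTRG.84893, MSTRG.39522) were chosen after their values were seen. Genome sequence of this build was not used here, so promoters of listed mRNAs stand in for the sequence around features. Same-numbered Nrl KO and wild-type libraries correlated at 0.0013 to 0.29 in their deviations, under 0.1 in some pairs, and were not treated as paired.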

Additional observations from a re-analysis of the deposited data

Results flagged for a closer look

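Of 198 values of a named domain or feature in 1 group, 27 had a library far from the rest of its group by Dixon's criterion, which chance alone passes in about 1 of 20. Wild-type replicate 1, the library with the fewest reads, was the highest in 19 of the 27. Among domain sums it stood at 3584 normalised counts in TAD_965 (nearest other library 2648), 731 in TAD_2333 (549), 174 in TAD_1141 (120), 255 in TAD_2011 (151), 741 in TAD_797 (558), 53.5 in TAD_1671 (25.1), 7143 in TAD_1911 (5388) and 1248 in TAD_2531 (1026). Among features it stood at 424 in MSTRG.47038 (343), 2810 in MSTRG.74898 (2050), 199 in MSTRG.38356 (129), 140 in MSTRG.27530 (78.4), 468 in MSTRG.45164 (287), 481 in MSTRG.68455 (312) and 645 in MSTRG.92026 (416). It also stood at 46.6 in MSTRG.14758 (18.8), 2122 in MSTRG.21011 (1626), 3619 in MSTRG.24236 (2329) and 346 in MSTRG.45448 (187).

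The other values came from several libraries. In Nrl KO, replicate 5 was highest at 0.758 in MSTRG.23770 and lowest at 40.2 in MSTRG.27530, replicate 3 was highest at 2.49 in MSTRG.47038 and replicate 2 at 1.01 in MSTRG.23510. In wild-type, replicate 3 was lowest at 544 in TAD_146, replicate 2 was lowest at 64.0 in MSTRG.23491 and highest at 1.88 in MSTRG.27717, and replicate 5 was highest at 1070 in MSTRG.27675.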

How the results depend on the processing

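Over all features of these domains, lower calls outnumbered higher calls under every alternative run. Leaving out each replicate in turn gave 707 to 766 lower and 244 to 275 higher features, 160 to 167 lower and 28 to 36 higher domains, and a median log2 difference of -0.229 to -0.209. A minimum mean of 20 gave 442 lower and 145 higher features, because 1232 features were then tested. The median was -0.165 with a pseudocount of 5, and -0.157 without features that overlap a listed gene, a setting added after seeing the data. Other settings kept the counts within 1.5 times: edgeR called 748 lower and 252 higher features, DESeq2 739 and 227, no filter 951 and 364. Domains numbered 171 lower and 30 higher with equal weight per feature, 138 and 35 without the most abundant feature, and 121 and 40 without features that overlap a listed gene.

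Of 99 named features and domains, 2 changed direction: TAD_1350, at 0.553 without features that overlap a listed gene, and TAD_1811, at 0.208 without its most abundant feature. The cause was not tested. Beyond these, 39 settings ended a call and 24 made one, at 12 and 9 results. Without wild-type replicate 1 the domain of Rcvrn, TAD_1671, differed by 0.64 (limma adjusted p = 0.0322). The replicate number as a block gave 818 lower and 308 higher features and 176 lower and 41 higher domains. Only 2 of 5 Nrl KO libraries correlated best with the wild-type library of the same number. The labels link these libraries by number alone, and whether they share a batch was not tested. Features of 5 to under 10 normalised counts rest on few reads, and 16.4% of them were lower.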
